A study of Mus musculus with 10 samples.

Results

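Leukocyte integrins and their adhesion partners were followed in hepatic stellate cell preparations by RNA sequencing. The 10 genes were chosen by symbol: the integrin subunits *Itgb2*, *Itgal*, *Itgam*, *Itgax* and *Itga4*, the endothelial-type ligands *Icam1* and *Vcam1*, the selectin ligand *Selplg*, the hyaluronan receptor *Cd44* and the leukocyte phosphatase *Ptprc*. All 10 were present among the 25233 rows of the table that carry a gene symbol, and all 10 passed the filter on low values. The comparison was between 5 libraries of hypertrophied hepatic stellate cells (hypHSCs), taken from C57BL/6J mice on CDAHFD (a high-fat diet poor in choline, on which the liver becomes fatty, inflamed and fibrotic), and 5 libraries of quiescent hepatic stellate cells (qHSCs), taken from C57BL/6J mice on the standard diet. hypHSC 1 and 2 came from mice aged 19 weeks after 13 weeks of the diet, and hypHSC 3, 4 and 5 from mice aged 18 weeks after 12 weeks. qHSC 1, 2 and 5 came from mice aged 36 weeks and qHSC 3 and 4 from mice aged 34 weeks. Both kinds of cell were released by enzymatic digestion, floated on a density gradient and sorted on their own fluorescence, in the green range for hypHSCs and in the blue range for qHSCs. No genetic reporter or antibody against a leukocyte protein was used in the sort. Per the study, antibiotics went only into buffers for the CDAHFD livers, whose preparations, unlike those of the standard diet, had held bacteria. Diet, age, digestion, antibiotics, bacteria and gate cannot be told apart as sources of a difference. The labels do not tie each library to a mouse of its own, so the p-values measure the spread between preparations.

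Integrins are pairs of an α and a β subunit that hold cells to ligands on other cells or in the matrix. The β2 subunit, encoded by *Itgb2*, is made by leukocytes and reaches their surface with αL, αM, αX or αD, encoded by *Itgal*, *Itgam*, *Itgax* and *Itgad*, whereas α4, encoded by *Itga4*, pairs with β1 or β7. In the general scheme of recruitment, a leukocyte rolls through selectins and their glycoprotein ligand PSGL-1 (*Selplg*). It is arrested when β2 and α4 integrins grip ICAM-1 (*Icam1*) and VCAM-1 (*Vcam1*), and then crosses the vessel wall. In the liver sinusoid CD44 can hold it to hyaluronan. CD45 (*Ptprc*), a transmembrane phosphatase found on all nucleated blood cells, switches on the Src family kinases that act below these receptors. Stellate cells can show ICAM-1 and VCAM-1 themselves.

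Reads on genes with a symbol numbered 30534717 to 43283591 in hypHSCs and 35640104 to 47317026 in qHSCs, and 3 reads, taken as the floor of detection, equalled 2.25 to 4.54 normalized counts (counting error alone). A normalized count is the number of reads on a gene divided by 1 size factor per library. The libraries were checked against defining markers of their labelled cell type. All 10 quiescent stellate cell markers, among them *Lrat*, *Reln* and *Colec11*, were lower in hypHSCs, with a median log2 fold change of -5.94 and a summed level of 32029 to 61096 normalized counts against 1359670 to 2251370 in qHSCs. All 10 core macrophage markers, among them *Lyz2*, *Cd68* and *Trem2*, were higher in hypHSCs, with a median log2 fold change of 4.39 and a summed level of 992628 to 1272000 against 4575 to 66252. Within qHSCs that sum was highest in qHSC 4 (66252) and qHSC 1 (30142) and lay between 4575 and 7486 in the other libraries, and the resident Kupffer cell markers were also most abundant in qHSC 4 (39351 summed normalized counts) and qHSC 1 (17323), against 1139 to 1693 in qHSC 2, 3 and 5. The quiescent stellate cell and core macrophage lists thus went against the label of the hypHSC libraries, which are named here by that label only. Of 8 activated stellate cell and myofibroblast markers 2 were called higher, 2 lower and 4 were not called. Their sums were 15814.5 to 58284 normalized counts in hypHSCs and 33130 to 62197 in qHSCs. By immunostaining, the study reported desmin, cRBP1 and αSMA protein in sorted hypHSCs, and LRAT protein that was low or not detected. It judged the sorted cells highly pure by their fluorescent droplets. After the gradient, it found hepatocyte and macrophage labels only on cells without such droplets. It also reported more CD36 and CD68 protein labelling on sorted hypHSCs than on qHSCs. In these bulk libraries fewer cells of a type and less RNA per cell cannot be told apart.

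Of the 10 genes, 8 were called higher in hypHSCs, 1, *Vcam1*, was called lower, and 1, *Icam1*, was not called (limma, Benjamini-Hochberg adjusted p no higher than 0.05, with a log2 fold change of 1 or more in either direction). Among all 14630 genes tested, 17.8% were called higher and 21.7% lower. The share of all calls that were higher was thus 45.0%, and it was 32.4% after scaling to equal totals and 17.4% after scaling to 3 reference genes. The median log2 fold change was 4.32 over the 10 genes and -0.20 over all genes tested. The 5 hypHSC values lay wholly outside the 5 qHSC values for 8 of the 10 genes, all but *Itgal* and *Icam1*, a separation that 39.5% of all genes tested also showed. For *Itgax*, at most 9.96 in qHSCs, the filter (10 normalized counts in 5 libraries) was passed through hypHSCs alone. Its separation and direction were thus fixed by the filter. Without qHSC 1 and qHSC 4 together, a choice made after the marker sums had been seen, the counts were again 8 higher and 1 lower.

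**Figure D1:**
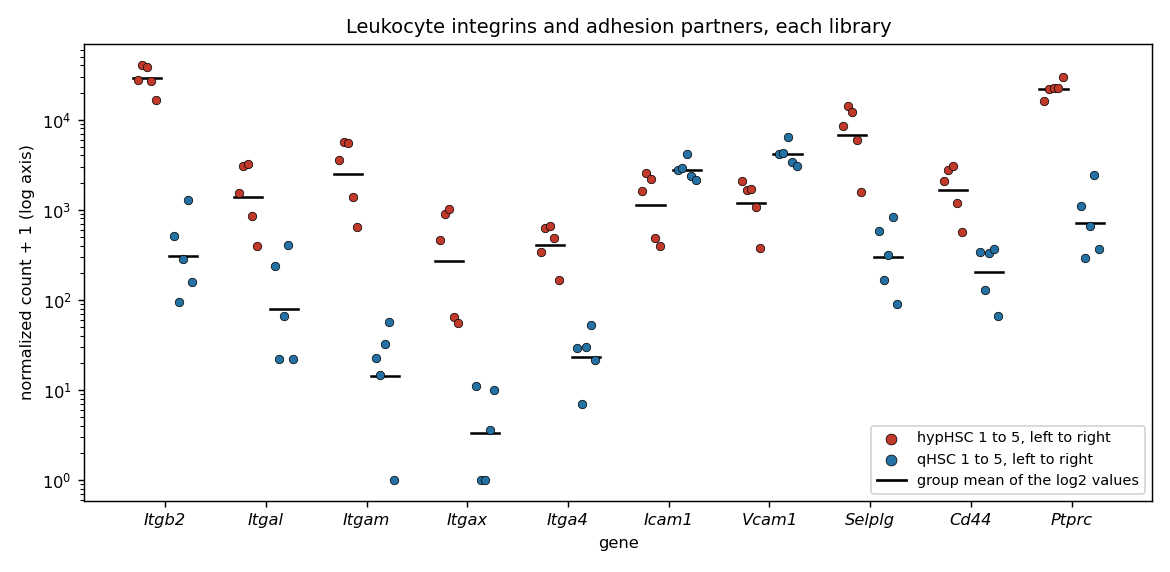
Normalized count plus 1 (log axis) of each of the 10 genes in hypHSC 1 to 5 (red) and qHSC 1 to 5 (blue), with the mean of the log2 values of each group as a black line. For Itgb2, Itgam, Itgax, Itga4, Selplg, Cd44 and Ptprc every red point lies above every blue one, for Vcam1 every red point lies below, and for Itgal and Icam1 the groups overlap.

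*Itgb2*, the shared β2 subunit, was the most abundant of the 10 genes in hypHSCs. It lies on chromosome 10 (77366181 to 77401542 on mm39, plus strand, 17 exon blocks), and none of its exon bases is shared with another annotated gene. In hypHSC 1 to 5 it stood at 27565, 40665, 38858, 27108 and 16579.8 normalized counts, and in qHSC 1 to 5 at 511, 94.6, 283, 1284 and 156. The lowest hypHSC library thus stood well above the highest qHSC library, and the qHSC libraries were spread 13.6-fold against 2.45-fold in hypHSCs. The means were 30155 ± 9829 and 466 ± 484 (SD, n = 5 each), a 64.8-fold ratio, and the log2 fold change was 6.54 ± 0.60 (SE, limma adjusted p = 7.54e-06, exact two-sided permutation p = 0.00794, the smallest that 5 against 5 libraries can give). Per length, *Itgb2* was at 228 ± 92.3 FPKM in hypHSCs, rank 168 among the genes with an exon length available, and at 4.427 ± 4.602 FPKM in qHSCs, rank 4405.

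*Itgam*, which encodes αM (CD11b), the α subunit of the complement receptor Mac-1, showed the largest log2 fold change of the 10 genes. The 5 hypHSC libraries, in order, had 3520, 5649, 5567, 1398 and 649 normalized counts and the 5 qHSC libraries 21.7, 13.6, 31.5, 55.6 and 0. hypHSC 4 and 5 were low within their group, and in qHSC 5 no read was counted. The means were 3357 ± 2309 and 24.5 ± 20.9 (SD, n = 5 each), with a log2 fold change of 7.45 ± 1.02 (SE, limma adjusted p = 0.000131). *Itgam* lies on chromosome 7 (127661812 to 127727334 on mm39, plus strand), and 67.4% of its exon bases are also exon of *Gm49368*, a same-strand gene model that has no row of its own here, so its level may hold reads of both.

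*Itgax*, which encodes αX (CD11c), the dendritic cell and macrophage subunit of complement receptor 4, lies next to *Itgam* on chromosome 7 (127728718 to 127749829 on mm39, plus strand). Its normalized counts were 466, 891, 1007, 64.0 and 54.5 in hypHSC 1 to 5 and 9.96, 0, 0, 2.57 and 8.99 in qHSC 1 to 5. In 3 of the 5 qHSC libraries it had 3 reads or fewer, and hypHSC 4 and 5 were far below the other hypHSC libraries. The log2 fold change was 6.37 ± 1.06 (SE, limma adjusted p = 0.000527), and it rests on few reads in qHSCs, 12 at most. Since *Itgax* passed the filter on low values through the hypHSC libraries alone, its direction was fixed by that filter. Of the stretches of 59 bases in its exons, the length of a read, 6.59% also occur in *Itgad*.

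*Itgal*, which encodes αL (CD11a), the α subunit of LFA-1, lies on chromosome 7 as well (126895432 to 126934309 on mm39, plus strand). In hypHSC 1 to 5 it stood at 1552, 3066, 3218, 853 and 390.2 normalized counts, and in qHSC 1 to 5 at 239, 21.3, 64.6, 408 and 20.98. The groups overlapped, because qHSC 4 was above hypHSC 5. The means were 1816 ± 1281 and 151 ± 170 (SD, n = 5 each), with a log2 fold change of 4.13 ± 0.90 (SE, limma adjusted p = 0.00288, exact two-sided permutation p = 0.0159). Without qHSC 1 and qHSC 4 together it was 5.45 (limma adjusted p = 0.000389).

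The makeup of the α subunits that can pair with β2 differed between the groups. *Itgad*, the fourth of these subunits, was at 72.6 to 337 normalized counts in hypHSCs and at 0 to 4.72 in qHSCs (log2 fold change 6.31 ± 0.65, SE, limma adjusted p = 1.72e-05). Like *Itgax*, it passed the filter through the hypHSC libraries alone, so its direction was fixed by the filter. Of the summed FPKM of *Itgal*, *Itgam*, *Itgax* and *Itgad*, *Itgam* made up 63.4%, 60.4%, 58.8%, 62.1% and 59.4% in hypHSC 1 to 5 and 9.87%, 45.1%, 36.2%, 14.7% and 0% in qHSC 1 to 5. *Itgal* made up 21.7%, 25.5%, 26.4%, 29.5% and 27.8% in hypHSC 1 to 5 and 84.4%, 54.9%, 57.7%, 84.1% and 61.2% in qHSC 1 to 5. *Itgam* was thus the leading subunit in every hypHSC library and *Itgal* in every qHSC library. In qHSC 2, 3 and 5 the shares rest on few reads, 25, 82 and 28 of *Itgal* and 16, 40 and 0 of *Itgam*. The share of *Itgam* was 60.8% ± 1.90 in hypHSCs and 21.2% ± 18.8 in qHSCs, and that of *Itgal* 26.2% ± 2.90 and 68.5% ± 14.6 (SD, n = 5 each, exact two-sided permutation p = 0.00794 and adjusted p = 0.0198 for both, over 5 such comparisons chosen after the values had been seen). The shares of *Itgax* (7.67% and 8.21%, exact permutation adjusted p = 0.992) and *Itgad* (5.33% and 2.16%, adjusted p = 0.0695) did not pass, though that of *Itgad* passed without qHSC 3 (exact permutation adjusted p = 0.0132). The same contrast as a log2 ratio of normalized counts, *Itgal* minus *Itgam*, was -0.86 ± 0.19 in hypHSCs and 2.47 ± 1.62 in qHSCs (SD, n = 5 each, exact two-sided permutation p = 0.0079, adjusted p = 0.0119 over 6 ratios). The ratio of *Itgax* to *Itgam* was -3.20 ± 0.80 and -2.12 ± 3.38 and did not pass (exact permutation adjusted p = 0.611), and it turned to a positive difference of 0.28 without qHSC 5, where *Itgam* had no read.

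**Figure D2:**
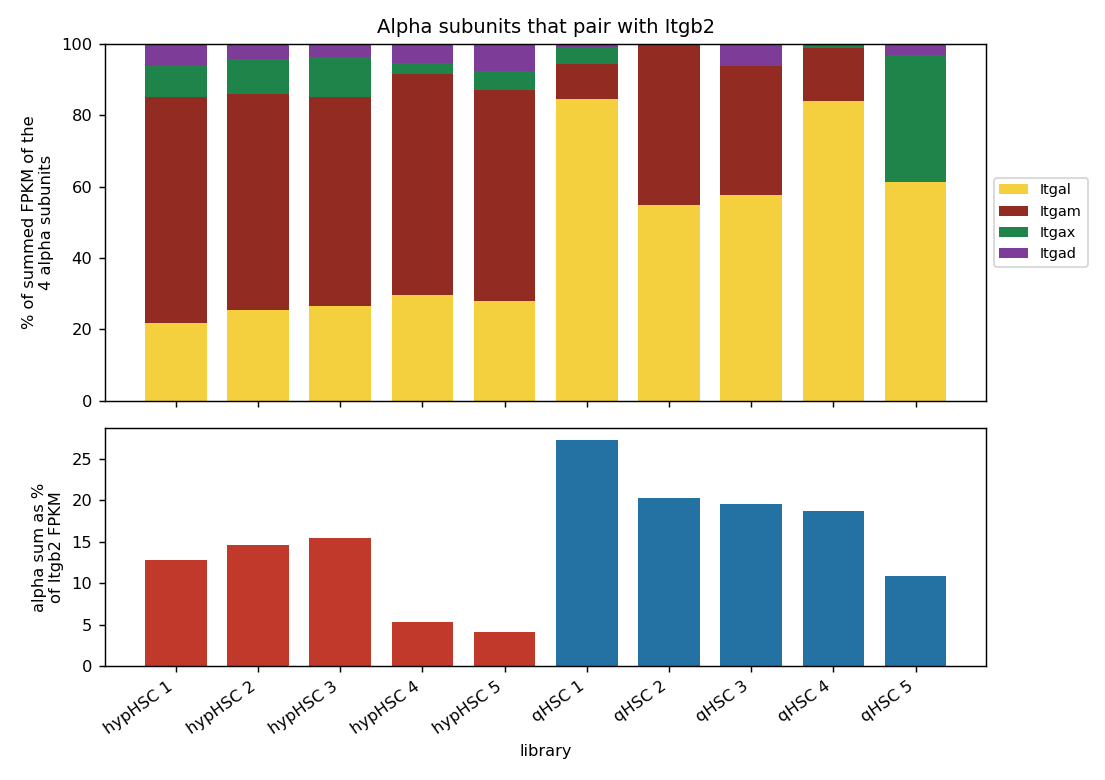
Upper bars, percent of the summed FPKM of Itgal, Itgam, Itgax and Itgad taken by each of these 4 α subunits in every library. Lower bars, that sum as a percent of the FPKM of Itgb2 (red, hypHSC; blue, qHSC). Itgam takes 58.8% to 63.4% in the hypHSC libraries, Itgal takes 54.9% to 84.4% in the qHSC libraries, and the sum reaches at most 27.3% of Itgb2.

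In each library the transcripts of the 4 α subunits together were far fewer, per length, than those of *Itgb2*. Their summed FPKM was 12.8%, 14.6%, 15.4%, 5.27% and 4.18% of that of *Itgb2* in hypHSC 1 to 5 and 27.3%, 20.2%, 19.5%, 18.7% and 10.8% in qHSC 1 to 5. hypHSC 4 and 5 had the least α transcript for their β2 transcript. The difference between the groups, 10.5% ± 5.33 against 19.3% ± 5.85, did not pass the threshold (SD, n = 5 each, exact two-sided permutation p = 0.0397, adjusted p = 0.0662), except without qHSC 5 (difference -10.98 percentage points, adjusted p = 0.0265).

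Promoter sequences are shown for 3 genes that were higher in hypHSCs and for *Icam1*, which was not, so that the start regions of genes with unlike levels can be read side by side. They are the 250 bases before and the 50 from the start of the RefSeq transcript on GRCm38.p6, and 6 of the 10 genes had an entry. Capitals mark GAGGAA on either strand, the letters bound by PU.1, a blood cell member of the ETS factors. They were found in 3 of the 6 genes, 3 times in *Itgam*, 2 times in *Cd44* and once in the first of 2 promoters of *Ptprc*, and in 28.3% of all 32851 promoters of that length. The entries of *Itgax*, *Itga4* and *Icam1* and the second of *Ptprc* did not hold these letters. The windows are chr7:128062390-128062689 (plus strand) for *Itgam*, chr7:128129300-128129599 (plus strand) for *Itgax*, chr1:138175256-138175555 (minus strand) for *Ptprc* and chr9:21015690-21015989 (plus strand) for *Icam1*.
Itgam: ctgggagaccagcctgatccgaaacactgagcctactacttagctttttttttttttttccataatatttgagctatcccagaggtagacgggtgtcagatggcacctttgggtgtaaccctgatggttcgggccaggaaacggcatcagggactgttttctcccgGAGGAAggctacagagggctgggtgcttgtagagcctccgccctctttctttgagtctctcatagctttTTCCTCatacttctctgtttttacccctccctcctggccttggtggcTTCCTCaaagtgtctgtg
Itgax: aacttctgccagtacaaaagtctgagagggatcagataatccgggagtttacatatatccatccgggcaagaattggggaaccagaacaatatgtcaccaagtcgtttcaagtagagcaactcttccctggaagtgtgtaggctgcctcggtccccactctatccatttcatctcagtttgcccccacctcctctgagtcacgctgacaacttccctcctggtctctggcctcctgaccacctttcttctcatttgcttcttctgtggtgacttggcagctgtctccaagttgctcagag
Ptprc: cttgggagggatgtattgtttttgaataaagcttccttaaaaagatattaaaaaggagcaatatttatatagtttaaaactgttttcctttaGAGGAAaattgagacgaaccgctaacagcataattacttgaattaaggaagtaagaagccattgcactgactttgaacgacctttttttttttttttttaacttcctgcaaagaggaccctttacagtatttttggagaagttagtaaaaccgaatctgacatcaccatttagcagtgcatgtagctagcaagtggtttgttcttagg
Icam1: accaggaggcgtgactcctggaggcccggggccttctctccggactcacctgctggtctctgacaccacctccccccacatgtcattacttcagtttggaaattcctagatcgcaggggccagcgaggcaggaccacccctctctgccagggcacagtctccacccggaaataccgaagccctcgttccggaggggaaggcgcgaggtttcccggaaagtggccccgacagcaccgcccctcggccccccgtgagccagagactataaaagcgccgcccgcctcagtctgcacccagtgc

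*Itga4*, which encodes α4, the chain that binds VCAM-1, was the least abundant member per length in hypHSCs. The 5 hypHSC libraries, in order, had 336, 624, 664, 489 and 166 normalized counts and the 5 qHSC libraries 28.1, 5.96, 29.1, 51.3 and 20.2. Every hypHSC library was above every qHSC library. The means were 456 ± 207 and 26.9 ± 16.5 (SD, n = 5 each), with a log2 fold change of 4.14 ± 0.57 (SE, limma adjusted p = 0.000144), yet its level was only 0.673 ± 0.352 FPKM in hypHSCs. That FPKM divides by 16732 exon bases, taken from a different annotation than the one used for counting, so it depends on this length. *Itga4* lies on chromosome 2 (79085769 to 79163458 on mm39, plus strand), and 20.8% of its exon bases are also exon of *Cerkl* on the minus strand, from which these strandless libraries cannot tell it apart. *Cerkl* was at 187 to 667 normalized counts in hypHSCs and at 20.2 to 42.5 in qHSCs.

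Of the β chains that pair with α4, *Itgb7* was called higher and *Itgb1* was not called. *Itgb7*, the β7 chain of the gut-homing integrin, was at 157 to 203 normalized counts in hypHSCs and at 5.96 to 44.5 in qHSCs (log2 fold change 3.32 ± 0.53, SE, limma adjusted p = 0.000397). *Itgb1*, the β1 chain found on nearly all cells, was at 2451 to 6057 normalized counts in hypHSCs and at 6080 to 7507 in qHSCs. The groups did not overlap, but the log2 fold change of -0.95 ± 0.23 stayed short of the fold threshold (SE, limma adjusted p = 0.00535). *Itga9*, the closest relative of α4, was called lower, with means of 356 ± 181 and 1851 ± 243 normalized counts (SD, n = 5 each, log2 fold change -2.52 ± 0.33, SE, limma adjusted p = 8.82e-05), and was chosen for naming after its values were seen. The log2 ratio of *Itga4* to *Itgb2* was -6.13 ± 0.35 in hypHSCs and -3.73 ± 0.69 in qHSCs (SD, n = 5 each, exact two-sided permutation adjusted p = 0.0119). *Itga4* was thus lower relative to *Itgb2* in hypHSCs, while its own level was higher there.

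Of the 2 immunoglobulin-type ligands, *Vcam1* was called lower in hypHSCs and *Icam1* was not called. *Vcam1*, the ligand of α4β1, lies on chromosome 3 (115903600 to 115923337 on mm39, minus strand). Its normalized counts were 2105, 1656, 1698, 1077 and 377 in hypHSC 1 to 5 and 4142, 4298, 6493, 3395 and 3066 in qHSC 1 to 5. Every hypHSC library was below every qHSC library, and hypHSC 5 was lowest. The means were 1383 ± 671 and 4279 ± 1339 (SD, n = 5 each), 3.09-fold higher in qHSCs, and the log2 fold change was -1.79 ± 0.42 (SE, limma adjusted p = 0.00475). A test against the fold threshold itself did not call it (limma treat, adjusted p = 0.158).

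*Icam1*, the ligand of LFA-1 and Mac-1, lies on chromosome 9 (20927236 to 20940109 on mm39, plus strand). Of its exon bases 10.3% are shared with *Gm47079* on the other strand. A counted row without a symbol overlaps its end, with means of 330 normalized counts in hypHSCs and 484 in qHSCs. In hypHSC 1 to 5 it stood at 1626, 2569, 2190.4, 489.9 and 393 normalized counts, and in qHSC 1 to 5 at 2771, 2883, 4179, 2368 and 2111. hypHSC 2 and 3 overlapped the qHSC libraries, whereas hypHSC 4 and 5 were far below them. The means were 1454 ± 984 and 2863 ± 799 (SD, n = 5 each), and the log2 fold change of -1.31 ± 0.51 did not pass (SE, limma adjusted p = 0.0529, exact two-sided permutation p = 0.0397). It passed without hypHSC 2 (log2 fold change -1.61, limma adjusted p = 0.0216), without hypHSC 3 (-1.55, adjusted p = 0.0315) and with the hypHSCs of 12 weeks only (-1.89, adjusted p = 0.0155).

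In qHSCs the 2 ligands kept a nearly fixed ratio. The log2 ratio of *Vcam1* to *Icam1* was 0.58, 0.58, 0.64, 0.52 and 0.54 in qHSC 1 to 5 and 0.37, -0.63, -0.37, 1.14 and -0.06 in hypHSC 1 to 5. The qHSC values spread by 0.045 (SD, n = 5) and the hypHSC values by 0.69 (SD, n = 5), on both sides of the qHSC mean of 0.57. The difference of the means, -0.48, did not pass (exact two-sided permutation p = 0.135, adjusted p = 0.162), except without hypHSC 4, where it was -0.74 (adjusted p = 0.0159). Per length the ligands ranked among the upper genes of qHSCs, *Icam1* at 17.8 ± 5.82 FPKM and *Vcam1* at 14.7 ± 5.32, both above *Itgb2* at 4.427 ± 4.602, whereas in hypHSCs *Icam1* was at 7.35 ± 5.28 and *Vcam1* at 3.80 ± 2.00 (SD, n = 5 each).

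**Figure D3:**
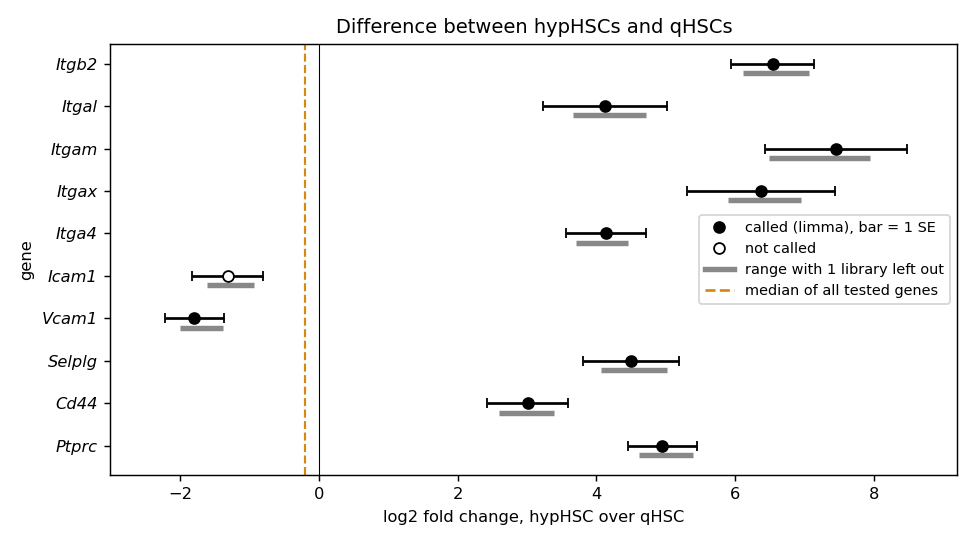
Log2 fold change (hypHSC over qHSC) of each of the 10 genes, with 1 SE of limma as the black bar and the range over fits that leave out 1 library at a time as the grey bar. Filled points were called, the open point (Icam1) was not, and the dashed line is the median of all genes tested, -0.20; the 8 genes called higher lie between 3.01 and 7.45.

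*Selplg*, which encodes PSGL-1, the ligand through which leukocytes roll on P-selectin, lies on chromosome 5 (113955859 to 113968562 on mm39, minus strand). The 5 hypHSC libraries, in order, had 8531, 14091, 12037, 6004 and 1565 normalized counts and the 5 qHSC libraries 576, 165, 316, 835 and 89.9. Every hypHSC library was above every qHSC library, and hypHSC 5 came closest to qHSC 4. The means were 8446 ± 4952 and 396 ± 308 (SD, n = 5 each), with a log2 fold change of 4.50 ± 0.70 (SE, limma adjusted p = 0.000308). A part of its exon bases, 12.6%, is shared with *Gm71766* on the other strand.

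Of 10 tested enzymes that build the sugars and sulfated tyrosines of selectin ligands, 2 were called higher, 2 lower and 6 were not called. *Gcnt1*, which starts the branched O-glycans that carry the selectin-binding sugar, was at 939 to 1767 normalized counts in hypHSCs and at 0 to 19.7 in qHSCs (log2 fold change 8.20 ± 0.81, SE, limma adjusted p = 1.31e-05). *Fut7*, the fucosyltransferase that completes that sugar in leukocytes, was at 22.7 to 1111 and at 0 to 42.6 normalized counts, so the groups overlapped (log2 fold change 6.25 ± 1.29, SE, limma adjusted p = 0.00214). *Tpst1*, a tyrosine sulfotransferase, was lower (log2 fold change -2.37 ± 0.26, SE), as was the sialyltransferase *St3gal4* (-2.07 ± 0.22, SE). *Selp* and *Sele*, the selectins of platelets and endothelium, were not called (limma adjusted p = 0.0952 and 0.185), with no more than 52.6 and 146 normalized counts in any library.

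*Cd44*, the hyaluronan receptor, lies on chromosome 2 (102641486 to 102732010 on mm39, minus strand). Its normalized counts were 2082, 2732, 3039, 1197 and 572 in hypHSC 1 to 5 and 340.3, 128, 332, 363 and 64.4 in qHSC 1 to 5. The groups did not overlap, and hypHSC 5 was the lowest of its group. The means were 1924 ± 1034 and 246 ± 139 (SD, n = 5 each), with a log2 fold change of 3.01 ± 0.58 (SE, limma adjusted p = 0.00136), the smallest of the 8 genes called higher. Of 11 tested genes of hyaluronan metabolism, its other receptors and the linkers of the CD44 tail, 4 were called higher, 1 lower and 6 were not called. *Cd74*, the MHC class II invariant chain and a partner of CD44, had a log2 fold change of 3.02 ± 0.65, the hyaluronan receptor *Hmmr*, which cycling cells also make, 2.84 ± 0.34, and the actin linker *Ezr* 2.25 ± 0.21 (SE). The called-lower gene, the linker *Rdx*, had a log2 fold change of -1.02 ± 0.32 (SE, limma adjusted p = 0.0202) and was named after its values were seen. Its groups overlapped, and the call was lost with DESeq2, edgeR, upper quartile or TMM scaling, hypHSCs of 12 weeks only and limma treat, and without hypHSC 2, hypHSC 3, qHSC 1 or qHSC 2.

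*Ptprc*, which encodes CD45, lies on chromosome 1 (137990597 to 138103403 on mm39, minus strand), and its exons are shared with no other gene of the GENCODE annotation. A counted row without a symbol lies inside its span (138089558 to 138095421), with means of 1520 normalized counts in hypHSCs and 71.9 in qHSCs. In hypHSC 1 to 5 it stood at 16170.1, 21797, 22420, 22478 and 30003 normalized counts, and in qHSC 1 to 5 at 1088, 289.7, 663, 2453 and 369. hypHSC 5, the lowest of its group for each of the other 9 genes, was the highest for *Ptprc*, and qHSC 4 was the highest of its group. The means were 22574 ± 4920 and 973 ± 885 (SD, n = 5 each), a 23.2-fold ratio, with a log2 fold change of 4.95 ± 0.50 (SE, limma adjusted p = 1.44e-05). The spread among hypHSCs was 1.86-fold, the narrowest of the 10 genes in that group.

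Relative to *Ptprc*, *Itgb2* and *Cd44* differed between the groups in opposite directions. The log2 ratio of *Itgb2* to *Ptprc* was 0.38 ± 0.73 in hypHSCs and -1.22 ± 0.25 in qHSCs (SD, n = 5 each), and that of *Cd44* to *Ptprc* was -3.76 ± 1.23 and -1.82 ± 0.78 (exact two-sided permutation p = 0.0079 and adjusted p = 0.0119 for both, over the 6 ratios). So *Itgb2* was higher and *Cd44* lower in hypHSCs for a given level of *Ptprc*. These ratios are taken within a library and do not depend on how the libraries were scaled.

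Of 15 tested substrates and partners of CD45, 9 were called higher, 2 lower and 4 were not called, with a median log2 fold change of 2.12. *Cd22*, a lectin that restrains B cell signals, had a log2 fold change of 6.11 ± 1.05, the kinase *Syk* 5.82 ± 0.92 and the phosphatase *Ptpn6* (SHP-1) 4.46 ± 0.65 (SE). *Ptprcap*, the CD45-associated protein of lymphocytes, was called lower, at 0 to 12.1 normalized counts in hypHSCs and 15.4 to 29.97 in qHSCs (log2 fold change -2.88 ± 0.80, SE, limma adjusted p = 0.0117). The other called-lower gene was the widely expressed Src family kinase *Yes1* (log2 fold change -3.72 ± 1.11, SE, limma adjusted p = 0.0166), named after its values were seen. Both calls were lost with the filter of a mean of at least 100 normalized counts, which removed both genes, and with edgeR.

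Of 20 tested proteins that switch integrins on or off or link them to actin, 11 were called higher, 4 lower and 5 were not called. Their median log2 fold change was 1.18. *Apbb1ip* (RIAM), which brings talin to integrins, had a log2 fold change of 4.96 ± 0.76 and its partner *Fyb* (ADAP) 4.73 ± 0.59 (SE). *Fermt3*, the kindlin of blood cells, was at 600.5 to 6863 normalized counts in hypHSCs and at 80.9 to 664 in qHSCs, overlapping between hypHSC 5 and qHSC 4 (log2 fold change 3.74 ± 0.73, SE, limma adjusted p = 0.00153). *Fermt2*, the kindlin of non-blood cells, was at 567 to 1044 and at 21189 to 41789 normalized counts (log2 fold change -5.11 ± 0.23, SE, limma adjusted p = 7.39e-08). *Tln2* was called lower (-5.77 ± 0.86, SE), and *Tln1*, the talin of leukocytes and most other cells, was not called (-0.14 ± 0.47, SE, limma adjusted p = 0.817).

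Among 22 tested receptors and ligands of the rest of the adhesion cascade, 7 were called higher, 5 lower and 10 were not called, with a median log2 fold change of 0.18. The junction proteins *Esam* (-7.70 ± 0.84), *Mcam* (-6.89 ± 0.94) and *Jam3* (-4.51 ± 0.36) had the largest falls (log2 fold change, SE). *Icam2* (0.27 ± 0.35, limma adjusted p = 0.554) and *Itgae*, the α partner of β7 (0.56 ± 1.65, adjusted p = 0.799), were not called. *Madcam1*, the gut ligand of α4β7, was too low to be tested, with 27.2 normalized counts at most.

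**Figure D4:**
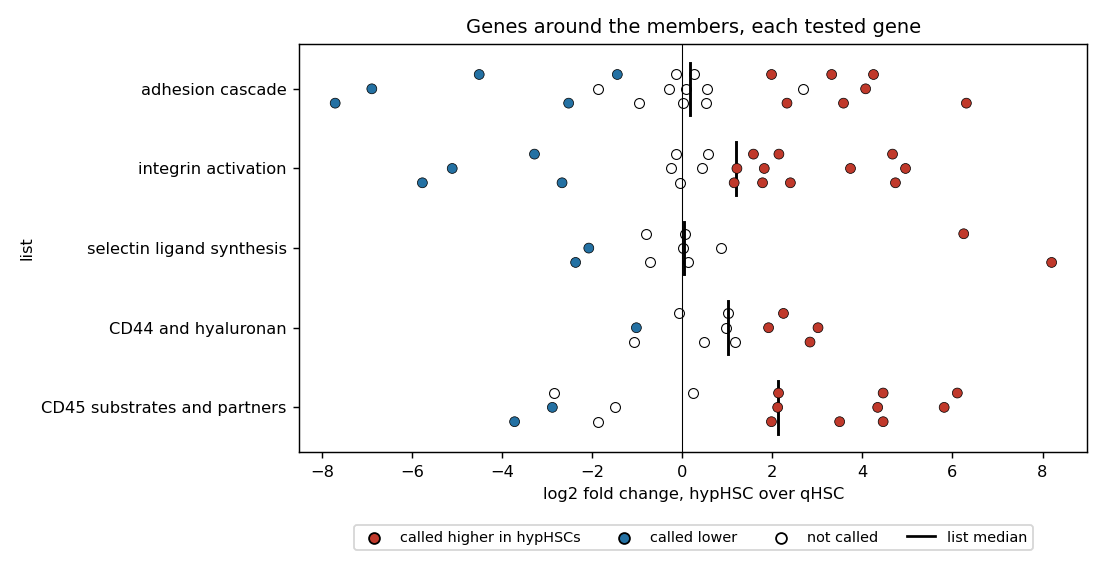
Log2 fold change (hypHSC over qHSC) of every tested gene of 5 lists around the 10 genes, red where called higher, blue where called lower, open where not called, with the list median as a black line. The medians run from 0.04 (selectin ligand synthesis) to 2.12 (CD45 substrates and partners), and each list holds genes called in both directions.

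Within hypHSCs the genes did not vary as 1 block. hypHSC 1 to 3 averaged above hypHSC 4 and 5 for 9 of the 10 genes, by means of 4912 against 1024 normalized counts for *Itgam*, 788 against 59.2 for *Itgax*, 2612 against 622 for *Itgal*, 11553 against 3785 for *Selplg* and 2129 against 442 for *Icam1*. *Ptprc* went the other way, with 20129 against 26241. This split was seen in the values and was not tested. Of the higher libraries, hypHSC 1 and 2 had 13 weeks of the diet and hypHSC 3 had 12, and hypHSC 4 and 5 also had 12. The part of diet time in the split was not tested. The core macrophage marker sum was 1162370, 1272000, 1089930, 1183430 and 992628 in hypHSC 1 to 5. That sum is mostly *Lyz2*, and its members did not share 1 pattern. Of the 10 core macrophage markers, 7 averaged higher in hypHSC 1 to 3 than in hypHSC 4 and 5, with means of 20890 against 3554 normalized counts for *Csf1r*, 44072 against 9942 for *C1qa* and 7053 against 3189 for *Adgre1*, whereas *Cd68* and *Cd14* averaged lower there. The number of genes with reads was 16634, 15821 and 16329 in hypHSC 1 to 3 and 14949 and 14028 in hypHSC 4 and 5. The part of these differences in the split was not tested.

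Within qHSCs the order of the libraries was that of the core macrophage marker sum for *Itgb2* and *Ptprc*, from qHSC 4 through qHSC 1, 3 and 5 to qHSC 2. *Selplg* and *Itgal* differed from it only in qHSC 2 and 5. *Icam1* and *Vcam1* were instead highest in qHSC 3 and lowest in qHSC 5. With 5 libraries no correlation was computed.

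As a percent of the core macrophage marker sum, *Itgb2* was at 2.37%, 3.20%, 3.57%, 2.29% and 1.67% in hypHSC 1 to 5 and at 1.70%, 2.07%, 3.78%, 1.94% and 2.45% in qHSC 1 to 5. The groups overlapped fully on this scale, where the difference in log2 was 0.14 with SDs of 0.43 and 0.45 (n = 5 each, exact two-sided permutation p = 0.651, adjusted p = 0.723 over 10 genes, a comparison chosen after the values had been seen). *Lyz2* held most of the sum in hypHSCs (740305 to 940344 of 992628 to 1272000 normalized counts). In qHSCs it held a smaller part (1264 to 30968 of 4575 to 66252), so the makeup of the sum differed between the groups. With the mean of the 10 log2 marker values in place of the sum, the *Itgb2* difference was 1.41 (exact permutation adjusted p = 0.0198). *Ptprc* was at 1.39% to 3.02% in hypHSCs and 3.61% to 8.86% in qHSCs, a log2 difference of -1.46 (exact permutation adjusted p = 0.0113) that was -0.18 with the mean of the log2 values (adjusted p = 0.667). *Cd44* (-3.39 and -2.12), *Icam1* (-7.72 and -6.44) and *Vcam1* (-8.20 and -6.92) were lower relative to these markers in hypHSCs by both measures (exact permutation adjusted p = 0.0113 and 0.0198 for each). For *Icam1* and *Vcam1*, which were not higher in hypHSCs themselves, this follows from the much higher marker level there and is no separate result. *Itgal*, *Itga4* and *Selplg* passed with the sum (adjusted p = 0.0113 each) and not with the mean of the log2 values (adjusted p = 0.119, 0.147 and 0.317), and *Itgam* and *Itgax* passed with neither (adjusted p from 0.0952 to 1). The part of macrophage RNA in the differences between hypHSCs and qHSCs was not tested.

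**Figure D5:**
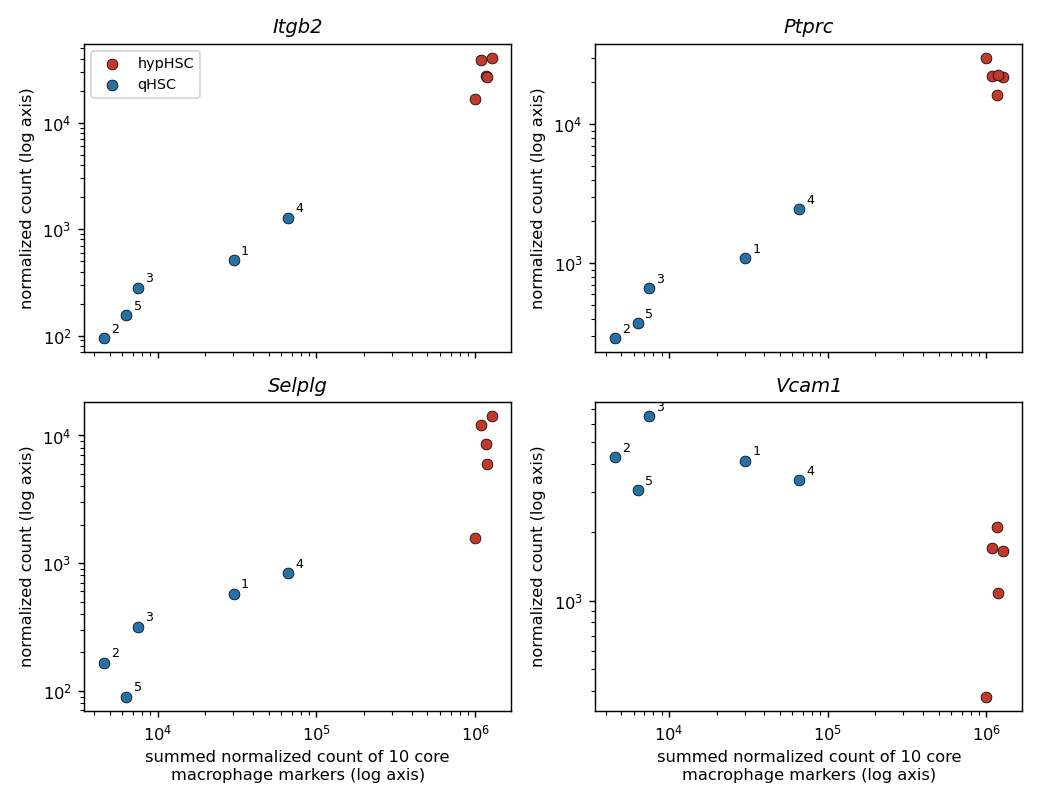
Normalized count of Itgb2, Ptprc, Selplg and Vcam1 against the summed normalized count of 10 core macrophage markers (log axes), 1 point per library, with qHSC libraries numbered. Itgb2 and Ptprc keep the order of the marker sum from qHSC 2 to qHSC 4, and the hypHSC libraries lie between 992628 and 1272000 on the horizontal axis.

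Markers of other leukocytes were checked as well, since the 10 genes are not particular to macrophages. Of 10 neutrophil markers 4 were tested, *S100a8*, *S100a9*, *Csf3r* and *Retnlg*, and all 4 were called higher. *S100a9*, at most 7.7 in qHSCs, and *Retnlg* passed the filter through the hypHSC libraries alone, which fixed their direction and separation. The list had a sum of 1861 to 8053 normalized counts in hypHSCs and 12.0 to 391.9 in qHSCs, led by *S100a8*. *Retnlg* was at 25.8 to 189 in hypHSCs and at 0 in qHSCs. Of the untested markers, *Cxcr2* and *Ngp* reached 97.3 and 37.7 in hypHSCs, and *Ly6g*, *Mpo*, *Elane* and *Camp* had at most 15.0 in any library. *Retnlg*, *Cxcr2* and *Ngp* were named after their values were seen. Of 10 T and NK cell markers 2 were tested and none called, with a sum of 72.4 to 815 against 5.96 to 197 normalized counts. *Klrb1c* (NK1.1), a marker of NK cells that missed the filter on low values, was at 8.32 to 139 normalized counts in hypHSCs and at 0 to 0.75 in qHSCs, and was named after its values were seen. Of 6 B cell markers 2 were tested and 1, *Cd79b*, called higher, with a sum of 243 to 381 against 19.6 to 148, and *Pax5* was at 0 in all 10 libraries. The part of these cells in the result was not tested.

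The genes whose pattern over the 10 libraries was closest to that of *Itgb2*, by the root mean square difference of log2 values after centring each gene, were *Arhgap25* (0.33), *Lilrb4a* (0.344), *Lilrb4b* (0.379), *Tlr13* (0.439) and *Myo1f* (0.443) among 10782 genes. *Lilrb4a* and *Lilrb4b* are near-identical copies, so their reads may be split between them. Of the other 9 genes *Ptprc* was closest, at 0.934, and *Icam1* and *Vcam1* were farthest, at 4.08 and 4.30. The genes closest to *Vcam1* were *Lgals9* (0.264), *Usp21* (0.266), *Ptpa* (0.28), *Mmp23* (0.286) and *Rnf150* (0.29), and *Icam1* was the closest of the 10, at 0.501.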

How the data were processed

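RNA from 20 000 sorted cells was copied from its poly(A) tail, amplified and sequenced at both ends without strand, per the labels and the study's methods, in 5 libraries of hypHSCs and 5 of qHSCs. The deposited signal is a normalized count per gene: the authors mapped reads to mm39 with STAR, counted them with featureCounts (Subread 1.5.0) on FAST DB annotation and divided by DESeq2 size factors. Multiplying by these factors gave whole reads for 100% of the values.

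Rows carrying a symbol were kept where 5 or more of the 10 libraries reached 10 normalized counts, and they were compared as log2(normalized count + 1) with limma (3.58.1, lmFit, eBayes with trend, R 4.3.3) and Benjamini-Hochberg adjustment over 14630 genes. Calls needed an adjusted p no higher than 0.05 and a log2 fold change of 1 or more in either direction. Single values and within-library ratios were compared with exact two-sided permutation tests over libraries. FPKM was computed from recovered reads and GENCODE exon lengths. limma's steps were tested on simulated data.

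The 10 genes, the lists and the tests were chosen with earlier results of these data known. Named were all 10 genes, up to 4 genes per list with the largest absolute log2 fold change among those whose groups do not overlap, list genes that pair directly with 1 of the 10, the 5 genes nearest to *Itgb2* and to *Vcam1*, and markers that were most abundant or near 0. Some genes under this rule are not reported here. Alternatives were pseudocounts 0.5 and 10, no filter or a mean of at least 100, other scalings (equal totals, upper quartile, TMM, 3 reference genes), DESeq2 1.42.0 and edgeR 4.0.16 on recovered reads, limma treat, entries without a symbol, the replicate number as a block, hypHSCs of 12 weeks only and libraries left out. The 37089 rows without a symbol were used in 1 alternative only. Same-numbered hypHSC and qHSC libraries shared only a number (correlations of their deviations 0.00815 to 0.129), so the main fit had no block.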

Additional observations from a re-analysis of the deposited data

How the results depend on the processing

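The 8 genes called higher in hypHSCs kept their call in each of 26 alternatives. The count of the 10 genes called lower, 1 in the main fit, was 2 with a pseudocount of 10, equal totals, 3 reference genes, the replicate block and hypHSCs of 12 weeks only, 0 with limma treat and 1 to 2 with 1 library left out; *Icam1* was the gene gained (adjusted p = 0.0467, 0.0294, 0.000501, 0.0184 and 0.0155) and *Vcam1* the gene lost. The fit with the replicate block is no paired test, since the libraries share only a number, and not every library correlated best with its own number. Scaling moved the median log2 fold change of all genes by -0.35 (equal totals), 0.11 (upper quartile), 0.06 (TMM) and -0.93 (3 reference genes), and *Vcam1* and *Icam1* are read against these shifts.

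Over all genes, 2602 called higher and 3177 lower became 1472 and 6989 with 3 reference genes, 3911 and 5380 with entries without a symbol, and 1465 and 1626 with limma treat. The adhesion cascade genes called higher, 7, were 4 with limma treat, and the integrin activation genes called higher, 11, were 6 with 3 reference genes and 6 with limma treat. The 1 called-lower gene of the CD44 and hyaluronan list was 0 with DESeq2, edgeR, upper quartile, TMM, 12 weeks only, limma treat and without qHSC 1 and 4, and 0 to 1 with 1 library left out. The 2 called-lower genes of the CD45 list were 1 with DESeq2, 0 with edgeR, a mean of at least 100, limma treat and without qHSC 1 and 4, 5 with 3 reference genes and 4 with 12 weeks only.

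The difference in the *Itgax* to *Itgam* ratio, -1.08, ran from -1.81 to 0.28 with 1 library left out. It was -2.04 with a pseudocount of 10 and -2.04 as a ratio of FPKM + 1 (exact permutation adjusted p = 0.00952 each). In qHSCs *Itgax* was at most 0.0636 FPKM and *Itgam* at most 0.334, so the added 1 outweighed both there. The pseudocount of 10 likewise exceeded every *Itgax* count in qHSCs, at most 9.96. Neither value is thus free of the constant added. The difference in the *Itgal* to *Itgam* ratio was -3.21 with 12 weeks only (exact permutation adjusted p = 0.0536). That in the *Vcam1* to *Icam1* ratio ran from -0.74 to -0.30. The difference in the share of *Itgax* among α subunits ran from -2.59 to 6.30 percentage points with 1 library left out, and only without qHSC 5 did it pass (6.30, adjusted p = 0.0397). The cause of these changes was not tested. Depth limits *Itgax* and *Itgam* in qHSCs, where 3 and 1 libraries had 3 reads or fewer.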

Other observations

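Markers of the remaining liver cell types gave these values beside the adhesion genes. Hepatocyte markers were at 9196 to 78395 summed normalized counts in hypHSCs and 17584 to 61119 in qHSCs, and none of the 6 was called. Of 7 tested sinusoidal endothelial cell markers 2 were called higher and 2 lower, with sums of 703 to 1400.1 in hypHSCs and 1739 to 3723 in qHSCs. Of 5 tested dendritic cell markers 2 were called higher, *Ccr7* and *Clec9a*, and 1 lower, *Zbtb46*, and the list reached 3667 summed normalized counts in hypHSC 2, against 467 in hypHSC 3. Of 4 tested platelet markers 1 was called higher, *Ppbp*, and 1 lower: *Itga2b*, the αIIb integrin chain of platelets, was at 0 to 41.8 normalized counts in hypHSCs and 721 to 1671 in qHSCs (log2 fold change -5.88 ± 0.93, SE, limma adjusted p = 0.00035), although *Gp9*, another platelet gene, had at most 2.57 in any library. Of 2 tested mesothelial markers 1 was called higher, *Krt19*, which, at most 8.15 in qHSCs, passed the filter through the hypHSC libraries alone. Of 8 activated stellate cell and myofibroblast markers 2 were called higher, *Lox* and *Timp1*, and 2 lower, *Postn* and *Tagln*, and 4, *Acta2*, *Col1a1*, *Col1a2* and *Col3a1*, were not called.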
